A study of Mus musculus with 6 samples.

Results

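The genes described here are 9 well-known targets of the transcription factor NRF2 that protect cells against oxidants: Nqo1, Gclc, Gclm, Srxn1, Txnrd1, Hmox1, Slc7a11, Abcc4 and Gpx2. They were chosen by name, and each was found once among the 18444 genes listed across the 6 liver libraries of the series. Of the 9, 7 had reads in every library, Slc7a11 had none in the corn oil library and Gpx2 had none in the HFD and HFD plus JT003 libraries.

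NRF2, encoded by Nfe2l2, is held in the cytoplasm by KEAP1, which directs its degradation. When oxidants or electrophiles modify KEAP1, NRF2 enters the nucleus, pairs with a small MAF protein and binds the antioxidant response element near its target genes, while BACH1 competes for the same element. In liver the targets make glutathione, reduce peroxides and quinones, break down heme, supply NADPH and export conjugates.

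The study asked how JT003, an agonist of both adiponectin receptors, acts on the liver in a diet model and a fibrosis model, and liver RNA of 6 conditions was read by BGISEQ-500 sequencing, each as 1 library. The mice were male, C57BL/6 in the labels and C57BL/6J in the methods, and given as 6 to 8 weeks old. In the diet model mice ate a standard diet (SD) or a high-fat diet (HFD) for 16 weeks, and the HFD plus JT003 mice also received JT003 at 500 µg/kg daily by intraperitoneal injection for 4 weeks. In the CCl4 model mice were injected with 20% carbon tetrachloride (CCl4) in corn oil at 5 ml/kg every 3 days for 6 weeks, with corn oil alone in the controls, and the CCl4 plus JT003 mice also received JT003 at 500 µg/kg daily for 3 weeks. The labels call the SD library a chow control and the HFD library NASH, whereas the methods describe the high-fat diet alone as a model of fatty liver. The methods give 6 mice per group, and whether a library holds 1 mouse or several is not stated.

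The libraries held 19374236 to 20184557 counts, and all 10 hepatocyte markers checked had reads in every library. With 1 library per condition there was no replicate check and no spread between mice, so each test compared 2 libraries and not the conditions. A gene was called when an exact binomial test (two-sided, conditional on the summed counts of 2 libraries) gave an adjusted p-value under 0.001 and the log2 ratio was at least 1 in size. Past the test means the adjusted p-value alone, at any fold. Intervals are 95% Clopper-Pearson intervals and cover counting error only, since 1 library per condition gives no spread between mice. Without molecular identifiers PCR copies cannot be recognised, so the counting error may be larger than these intervals show. In whole liver, fewer cells of a type and less RNA per cell cannot be told apart.

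The windows around the transcription starts of the members were read for the core of the antioxidant response element, TGACNNNGC, on both strands, to show where such letters lie in genes known as targets. RefSeq (GRCm38.p6) gave windows of 250 bases before to 50 bases after the start for 7 of the 9 members, 10 windows in all, and none for Gclc and Hmox1. The core was present in a window of 4 of these 7 genes, and 12.4% of 32851 windows of the same length held it. The wider form TGANNNNGC was present in 6 of the 7 genes and in 41.3% of all windows. A gene counted if any of its windows held the letters, and Txnrd1 had 3 windows and Abcc4 2. The shares of genes and of windows are therefore not measured alike. The matches before the start are printed below on the gene's strand, with the 9 letters of the core in capitals, and 3 of the 4 hold the core on the opposite strand, that of the second Abcc4 start being on the gene's strand.
Gclm, chr3:122245403-122245451 (+), 134 to 126 bases before the start: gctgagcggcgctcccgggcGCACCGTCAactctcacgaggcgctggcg
Txnrd1, second of 3 starts, chr10:82859094-82859142 (+), 92 to 84 bases before the start: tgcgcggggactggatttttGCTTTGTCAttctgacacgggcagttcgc
Abcc4, first of 2 starts, chr14:118706220-118706264 (-), 25 to 17 bases before the start: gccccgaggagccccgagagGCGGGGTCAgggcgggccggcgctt
Abcc4, second start, chr14:118676932-118676974 (-), 23 to 15 bases before the start: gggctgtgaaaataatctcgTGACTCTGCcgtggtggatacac
The Srxn1 window held TGACCTAGC on the opposite strand, after the start. None of these matches overlapped TGACTCA, the AP-1 motif, which 5.2% of all windows held. The Nqo1, Slc7a11 and Gpx2 windows did not hold the 9-letter core, which says only that these letters are not in these 300 bases. Such a match is a description of letters and not of binding. The same core was found in 7 of 29 other NRF2 targets and in 4 of 11 pathway genes with a window, Nfe2l2, Mafg, Mafk and Maff.

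Per length, the members spanned a wide range. The deposited FPKM of Gclc was 41.1 to 122 across the libraries, that of Gclm 47.2 to 80.9 and that of Txnrd1 31.5 to 48.4. Srxn1 lay at 13.9 to 37.6 FPKM, Hmox1 at 4.94 to 20.8 and Nqo1 at 1.76 to 8.21. Abcc4 lay at 0.28 to 0.64 FPKM, Gpx2 at 0 to 0.54 and Slc7a11 at 0 to 0.06. The last of these had 0 to 11 counts per library and Gpx2 0 to 11, so changes of these 2 genes were hardly detectable at this depth. A count of 0 in a library allows up to 3 counts.

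**Figure D1:**
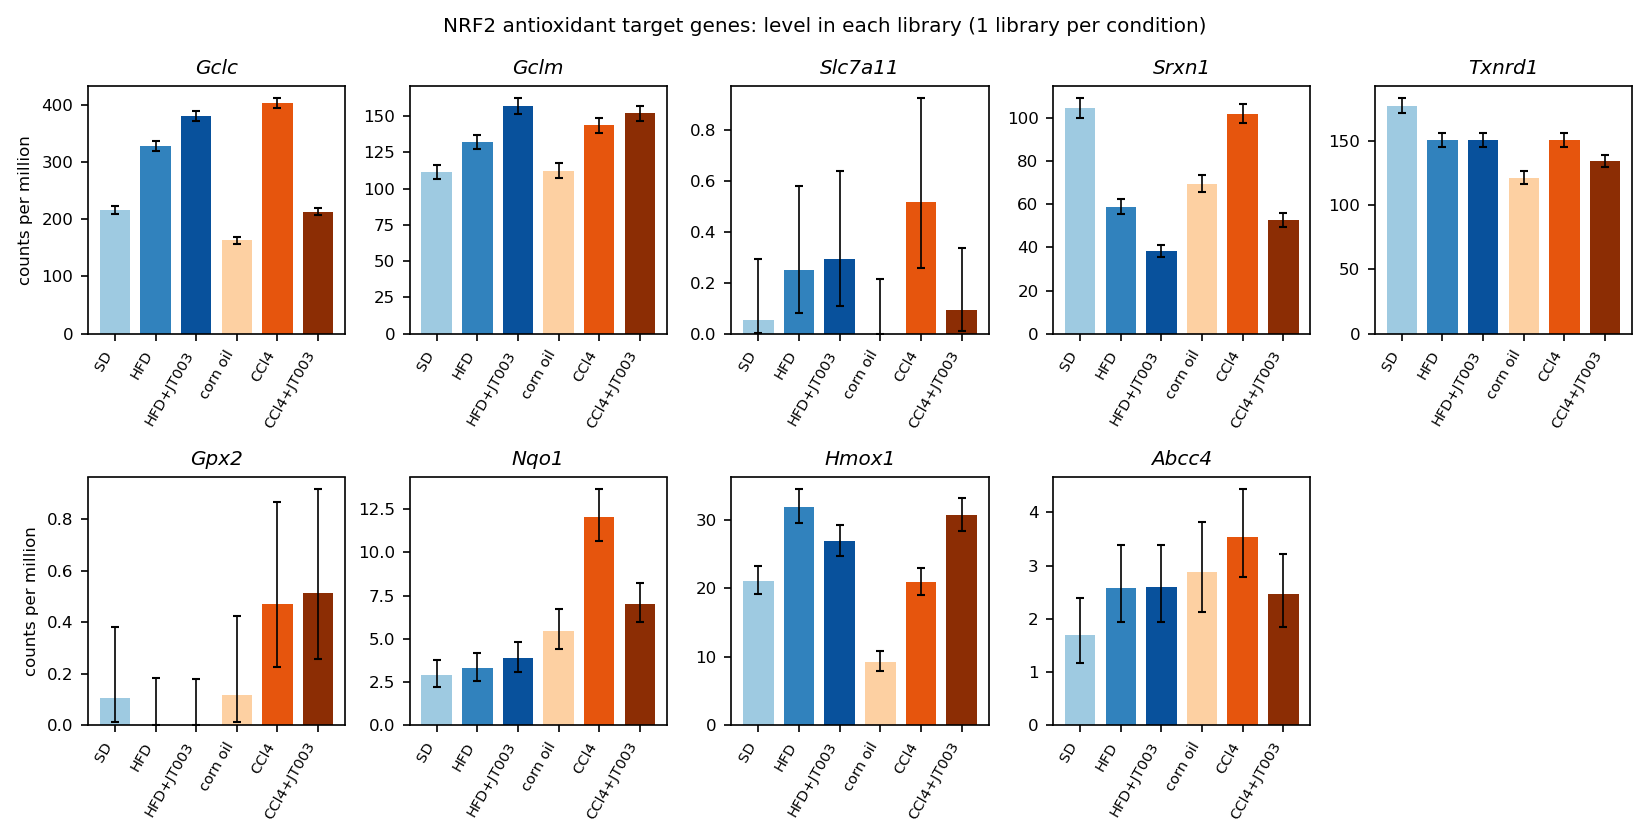
Level of each member in CPM (counts scaled to library size by TMM over 6 libraries, y axis from 0) in the 6 libraries (x axis). Bars are single libraries and error bars are 95% Poisson intervals of the count. Gclc, Nqo1 and Srxn1 stood higher in the CCl4 library than in the corn oil and CCl4 plus JT003 libraries, while Hmox1 was highest in the HFD and CCl4 plus JT003 libraries.

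Most members were higher in the CCl4 library than in the corn oil library. Of the 9, 3 were called higher, Gclc, Nqo1 and Hmox1, where 4.76% of the 17234 genes tested were called higher. Past the test 6 were higher and none lower, where 14.0% of all genes were higher. Slc7a11, Abcc4 and Gpx2 did not pass it. All 9 log2 ratios were above 0, with a median of 1.16 beside 0.00 for all genes. Without Slc7a11 and Gpx2, each with a library at 3 counts or fewer, the median was 0.58. In the diet model no member was called with HFD, where 5.38% of 16973 genes were called. The 5 members past the test, where 23.4% of all genes were, were split into 3 higher and 2 lower in the HFD library.

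**Figure D2:**
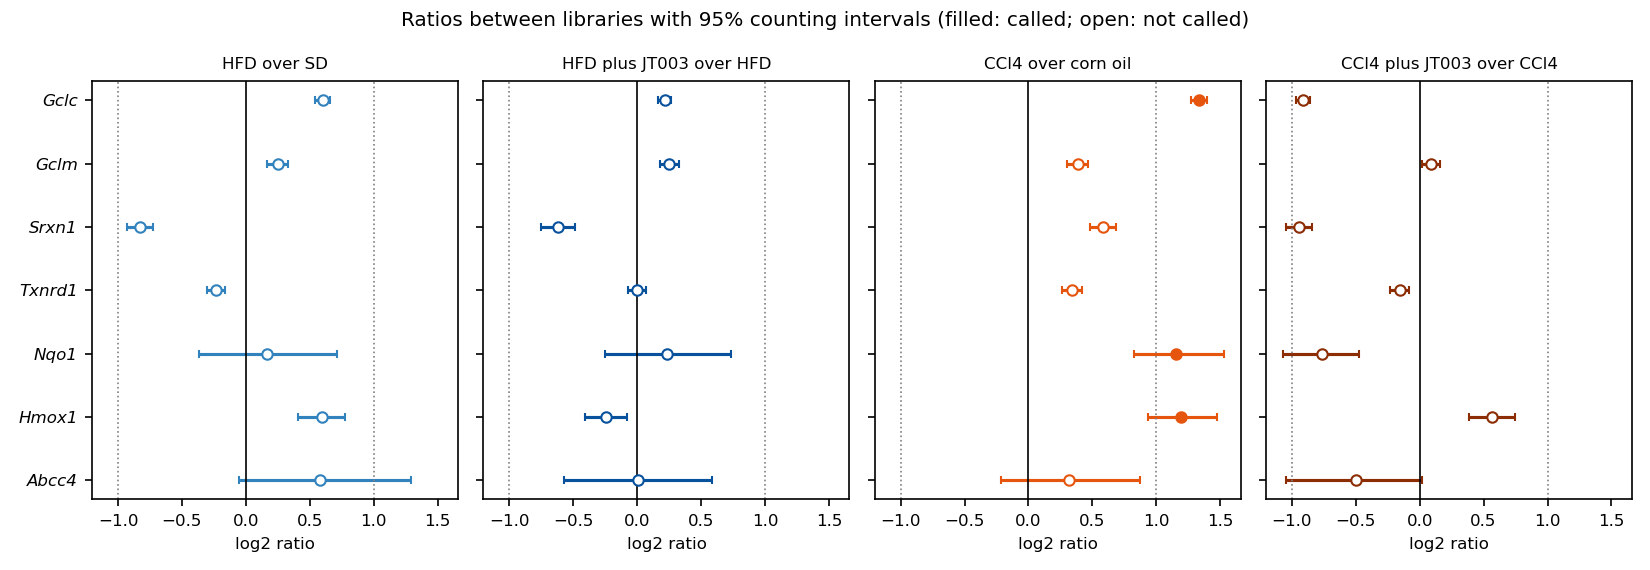
Log2 ratio (x axis) of 7 members with reads above the floor of 3 in every library, for 4 comparisons of 2 libraries. Points are ratios, bars are 95% counting intervals, filled points were called and dotted lines mark -1 and 1. Gclc, Nqo1 and Hmox1 were called for CCl4 over corn oil and no point was called in the other 3 panels.

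Glutathione is made in 2 steps, and glutamate-cysteine ligase carries out the first. Gclc (gene ID 14629), its catalytic subunit, had 4078, 6588 and 7762 counts in SD, HFD and HFD plus JT003. In the CCl4 model the corn oil library held 2779 counts, the CCl4 library 8553 and the JT003 library 4576. The corn oil library was the lowest of the 6 and the CCl4 library the highest, just above HFD plus JT003. The log2 ratio was 1.33 (1.27 to 1.40) for CCl4 over corn oil, which was called, and 0.60 (0.54 to 0.66) for HFD over SD, which passed the test below the fold threshold. Between the JT003 libraries and their model libraries Gclc moved in opposite directions, with a log2 ratio of 0.21 (0.17 to 0.26) in the diet model and -0.91 (-0.97 to -0.86) in the CCl4 model, both past the test. Against a further measure of the CCl4 group, described after the single genes, the latter was -0.30 (-0.35 to -0.25) and the ratio of that measure to corn oil was 0.72 (0.66 to 0.78), no longer called. The SD and CCl4 plus JT003 levels were within counting error of each other, and every other pair of neighbours in the order was apart.

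Gclm (gene ID 14630), the modifier subunit that raises the activity of GCLC, varied less. It had 2096, 2651 and 3205 counts in SD, HFD and HFD plus JT003, and 1909, 3045 and 3260 in the CCl4 model in the order corn oil, CCl4, JT003. In each model the control had the lowest count and the JT003 library the highest, and the 2 control libraries were within counting error of each other. The log2 ratios for HFD over SD, 0.25 (0.16 to 0.33), and for CCl4 over corn oil, 0.38 (0.30 to 0.47), were past the test and neither was called. For JT003 the log2 ratio was 0.25 (0.18 to 0.33) over HFD, past the test, and 0.09 (0.02 to 0.16) over CCl4, not past it. The 2 subunits of the enzyme had unequal ratios in the CCl4 model, with intervals that did not overlap.

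Slc7a11 (gene ID 26570), the cystine importer that feeds glutathione synthesis in many cell types, had 1, 5 and 6 counts in the diet model and 0, 11 and 2 in the CCl4 model. Its 11 counts in the CCl4 library were 3.0-fold over a floor of 3 counts in the corn oil library. With counting error the lower 95% limit of the log2 ratio was 1.04, and Slc7a11 did not pass the test there. It was called in none of the comparisons between the 6 libraries. Of 10 other genes of glutathione metabolism, Gss alone was called higher for CCl4 over corn oil, with 1362 and 3387 counts and a log2 ratio of 1.02 (0.93 to 1.12). With the further CCl4 measure in place of that library the ratio was 0.72 (0.63 to 0.80), and none of the 10 was called. Gss encodes glutathione synthetase, which carries out the other step.

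Srxn1 (gene ID 76650) encodes sulfiredoxin, which repairs over-oxidized peroxiredoxins, and had the largest falls of the members past the test in the diet model. It had 1973, 1184 and 784 counts in SD, HFD and HFD plus JT003, so that each library lay below the one before. Its log2 ratio was -0.83 (-0.93 to -0.72) for HFD over SD. For HFD plus JT003 over HFD the ratio was -0.62 (-0.75 to -0.49), and both passed the test. Between HFD plus JT003 and SD it was -1.44 (-1.57 to -1.33), and Srxn1 was the one member called there, where 2.76% of 17012 genes were called lower. In the CCl4 model it had 1179, 2160 and 1131 counts. The CCl4 library was above corn oil with a log2 ratio of 0.58 (0.48 to 0.69), and CCl4 plus JT003 was below CCl4 with -0.94 (-1.05 to -0.84), an interval that includes the fold threshold. Srxn1 fell past the test with JT003 in both models.

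Txnrd1 (gene ID 50493), the cytosolic thioredoxin reductase, varied little. It had 3340, 3020 and 3065 counts in the diet model and 2062, 3186 and 2881 in the CCl4 model. It was highest in SD and lowest in corn oil, and between these HFD, CCl4 and HFD plus JT003 lay within counting error of each other. The log2 ratio was -0.24 (-0.31 to -0.17) for HFD over SD, and CCl4 over corn oil gave 0.34 (0.26 to 0.42), both past the test. With the further CCl4 measure the latter was 0.12 (0.05 to 0.20), not past it. With JT003 it was -0.00 (-0.07 to 0.07) over HFD, with 0.01 on total reads, and -0.16 (-0.23 to -0.08) over CCl4, of which the latter passed the test. Gpx2 (gene ID 14776), a glutathione peroxidase known best from the gut, had 2, 0 and 0 counts in the diet model and 2, 10 and 11 in the CCl4 model. The 10 and 11 counts of the CCl4-treated livers were not told apart from the 2 of corn oil by the test.

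Nqo1 (gene ID 18104), the quinone reductase often used to read NRF2 activity, had few reads in these livers. It had 55, 66 and 79 counts in the diet model, which lay within counting error from one library to the next, and 93, 256 and 151 in the CCl4 model. The log2 ratio was 1.16 (0.82 to 1.53) for CCl4 over corn oil, which was called, and -0.76 (-1.07 to -0.48) for CCl4 plus JT003 over CCl4, past the test. For HFD over SD it was 0.17 (-0.37 to 0.71), and JT003 over HFD gave 0.23 (-0.25 to 0.73). In the diet model no difference was detectable at this depth.

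Hmox1 (gene ID 15368) encodes heme oxygenase 1, which splits heme and is also abundant in macrophages that clear red cells. It had 398, 640 and 549 counts in the diet model, while the CCl4 model held 157 in corn oil, 442 with CCl4 and 659 with JT003 added. The corn oil library stood below the other 5, and the JT003 library of the CCl4 model was the highest of its 3. The log2 ratio was 0.59 (0.41 to 0.78) for HFD over SD, past the test, and 1.20 (0.94 to 1.48) for CCl4 over corn oil, called. With JT003 it was -0.24 (-0.41 to -0.08) over HFD, not past the test, and 0.56 (0.39 to 0.74) over CCl4, past it. Against the further CCl4 measure the latter was -0.10 (-0.24 to 0.03), so that the rise rests on the CCl4 library. Against corn oil the CCl4 plus JT003 library had a log2 ratio of 1.76 (1.52 to 2.03).

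Macrophage markers had their lowest sum in the corn oil library, as Hmox1 had its lowest count. The summed FPKM of 12 macrophage markers was 39.6, 144 and 203 from corn oil through CCl4 to its JT003 library, and 164, 184 and 239 in the diet model. None of the 12 was at 0 in any library. For HFD over SD 1 was called higher and none lower. For HFD plus JT003 over HFD the sum rose, yet none was called higher and 2 were called lower, where 0.884% of all genes were called lower. Past the test 7 were higher and 2 lower there. For CCl4 over corn oil 9 of the 12 were called higher, and for CCl4 plus JT003 over CCl4 2 were called higher and 1 lower. Past the test in the latter comparison 6 were higher and 3 lower. Against the further CCl4 measure none was called higher with JT003 and 4 lower, with 8 lower past the test and a median log2 ratio of -0.51, while Hmox1 did not pass the test. Their part in the Hmox1 result was not tested. Of 13 genes of heme and iron handling none was called for CCl4 over corn oil, and 2 were called higher for CCl4 plus JT003 over CCl4. These were Alas1, the first enzyme of heme synthesis, with 10199 and 26777 counts and a log2 ratio of 1.38 (1.35 to 1.41), and Hamp, which encodes hepcidin, with 8132 and 26719 counts and a log2 ratio of 1.71 (1.67 to 1.74). For the further CCl4 measure over corn oil 1 of the 13 was called higher and 3 lower.

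Abcc4 (gene ID 239273), an exporter of bile acids and conjugates across the basolateral membrane of hepatocytes, had 32, 52 and 53 counts in the diet model and 49, 75 and 53 in the CCl4 model. It passed the test in no comparison. The log2 ratio was 0.58 (-0.05 to 1.29) for HFD over SD, and CCl4 over corn oil gave 0.32 (-0.21 to 0.88). For JT003 it was 0.00 (-0.57 to 0.59) over HFD and -0.50 (-1.05 to 0.01) over CCl4.

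With JT003 no member was called against the model library in either model. For HFD plus JT003 over HFD, where 1.63% of 17090 genes were called, 3 of the 8 members tested were past the test, Gclc and Gclm higher and Srxn1 lower, where 14.2% of all genes were past it. The median log2 ratio of the 8 was 0.09. For CCl4 plus JT003 over CCl4, where 4.42% of 17393 genes were called, 5 of 9 members were past the test, where 24.0% of all genes were. These were Nqo1, Gclc, Srxn1 and Txnrd1, which were lower, and Hmox1, which was higher. The median log2 ratio of the 9 was -0.50 beside 0.00 for all genes. The CCl4 library enters both this comparison and that with corn oil, so a high or low value in it moves the 2 ratios in opposite directions.

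The JT003 libraries were also set against the untreated controls. For HFD plus JT003 over SD, 5 members were past the test, where 26.7% of all genes were, Gclc, Gclm and Hmox1 higher and Srxn1 and Txnrd1 lower. The log2 ratio of Gclc was 0.81 (0.76 to 0.87) and that of Gclm 0.50 (0.42 to 0.58). For CCl4 plus JT003 over corn oil, 1 member, Hmox1, was called higher, where 3.23% of 17338 genes were. Past the test were 5 members, where 20.5% of all genes were. Gclc had a log2 ratio of 0.42 (0.35 to 0.49), Gclm of 0.47 (0.39 to 0.56) and Srxn1 of -0.36 (-0.48 to -0.24).

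A further measure of the CCl4 group came from the authors' own table of CCl4 and CCl4 plus JT003, whose CCl4 column sums to 2.97 times the CCl4 library and appears, from its values, to pool that library with others. Subtracting the CCl4 library left 39780549 counts, which share no reads with it if the column does hold that library. The column was below the CCl4 library in 24 of the 16508 genes listed there, by at most 0.99 counts. Which libraries were pooled is not stated in the table, so this remainder has no n and no spread. Over 11201 genes with at least 100 counts, the log2 ratio of the CCl4 library to the remainder had a median size of 0.21 and a 95th percentile of 0.75. No member was called between the 2, where 1.67% of 17471 genes were called, and 5 were past the test, where 20.4% of genes were. Gclc stood higher in the CCl4 library, with a log2 ratio of 0.61 (0.57 to 0.65), as did Gclm with 0.42 (0.35 to 0.48), Srxn1 with 0.29 (0.22 to 0.37) and Txnrd1 with 0.22 (0.15 to 0.28). Hmox1 stood lower in it, with -0.67 (-0.83 to -0.52).

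These differences bear on the members' ratios. Against corn oil the remainder had 2 members called higher, Hmox1 and Slc7a11, where 7.29% of genes were called higher. Hmox1 had 1457 counts in the remainder and a log2 ratio of 1.87 (1.64 to 2.12). Slc7a11 had 62 counts, 8.17-fold over a floor of 3 counts in corn oil, and the lower 95% limit of its log2 ratio was 2.69. Nqo1, with 443 counts, and Gclc, with 11605, had log2 ratios of 0.91 (0.59 to 1.25) and 0.72 (0.66 to 0.78), past the test but no longer at the fold threshold. Gclm, with a ratio of -0.03 (-0.11 to 0.05), was no longer past the test, and neither was Txnrd1, with 0.12 (0.05 to 0.20). Srxn1 stayed past it with 0.29 (0.20 to 0.39). The median of the 9 members was 0.72, and 0.30 without Slc7a11 and Gpx2.

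Set against the remainder, CCl4 plus JT003 was still lower past the test in Nqo1, with a log2 ratio of -0.51 (-0.79 to -0.24), in Gclc with -0.30 (-0.35 to -0.25) and in Srxn1 with -0.65 (-0.75 to -0.55). The rise of Hmox1 was not seen, with a log2 ratio of -0.10 (-0.24 to 0.03), and Gclm was higher, with 0.51 (0.44 to 0.57). Slc7a11 was called lower, with 62 and 2 counts and a log2 ratio of -3.25 (-6.99 to -2.00), where 3.36% of genes were called lower. Txnrd1 had a ratio of 0.06 (-0.00 to 0.13). Of the 12 macrophage markers, 11 were lower past the test in the CCl4 library than in the remainder, beside the lower Hmox1. Their part in the difference was not tested.

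**Figure D3:**
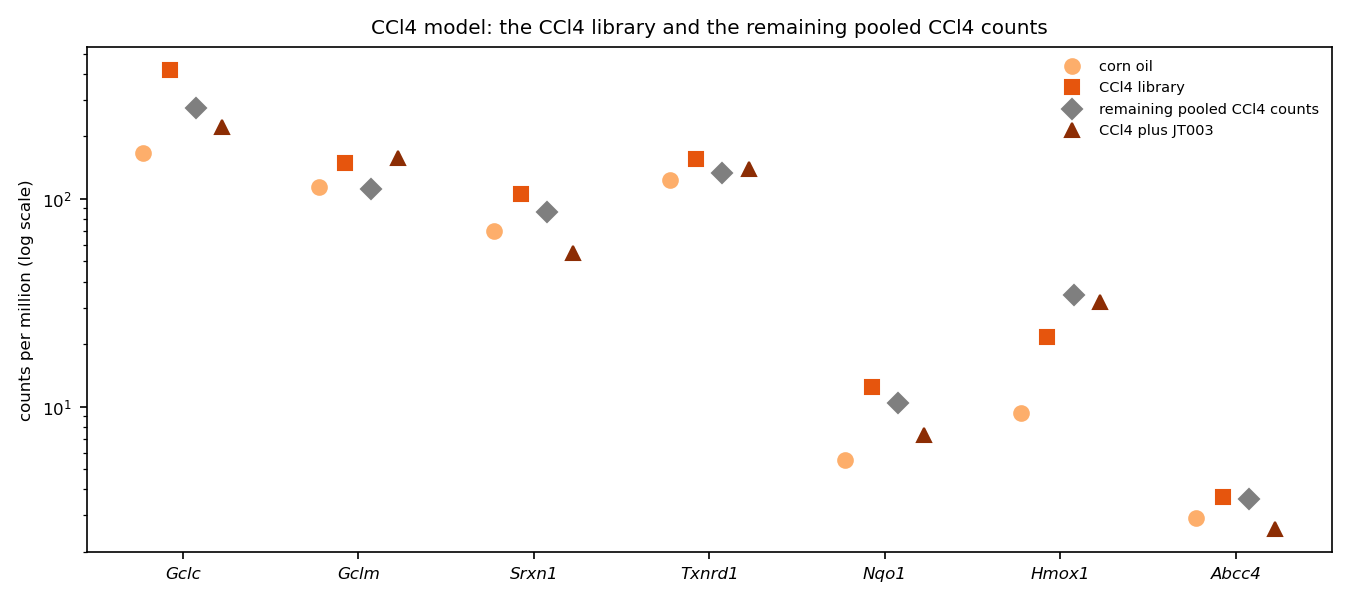
Level of 7 members in CPM (counts scaled to library size, y axis, log scale) in the corn oil library, the CCl4 library, the remaining pooled CCl4 counts and the CCl4 plus JT003 library. Points carry no error between mice. Nqo1, Gclc and Srxn1 lay higher in both CCl4 measures than in CCl4 plus JT003, whereas the CCl4 plus JT003 level of Hmox1 lay between the 2 CCl4 measures.

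Of 12 genes that act on or with NRF2, 1 was called for CCl4 over corn oil, where 7.18% of all genes were. None was called for HFD over SD, where 5.38% of all genes were. Nfe2l2 had 1200, 1562 and 1408 counts in the diet model and 806, 2254 and 1993 in the CCl4 model. It was the one pathway gene called higher for CCl4 over corn oil, with a log2 ratio of 1.19 (1.08 to 1.31), and with 0.999 (0.89 to 1.11) for the remainder over corn oil it was past the test but not called. Over CCl4 the JT003 library had a ratio of -0.19 (-0.28 to -0.10) for Nfe2l2. Over corn oil that library had a log2 ratio of 1.01, and Nfe2l2 was called there, where 3.23% of all genes were called higher. Keap1 had 1276, 1064 and 1062 counts and 1049, 1307 and 1172 counts, and a log2 ratio of 0.03 (-0.09 to 0.15) for CCl4 over corn oil. Bach1, the repressor at the same elements and of Hmox1 in particular, had 883, 1138 and 1332 counts and 496, 379 and 786 counts. It was called higher for CCl4 plus JT003 over CCl4, with a log2 ratio of 1.04 (0.86 to 1.22), where 1.91% of all genes were. With 0.49 (0.36 to 0.63) against the remainder it was past the test below the fold threshold.

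Another 33 known targets of NRF2, from glutathione transferases to pentose phosphate enzymes, were mostly higher in the CCl4 library. For CCl4 over corn oil 9 were called higher and none lower, and 24 were higher and 5 lower past the test, with a median log2 ratio of 0.66. Gstm3 had 304 and 11923 counts with a ratio of 5.0 (4.84 to 5.17), and Gsta1 had 64 and 1821 with 4.50 (4.18 to 4.93). Both are glutathione transferases with close paralogs, between which shared reads may be divided uncertainly. Ptgr1, a prostaglandin and leukotriene reductase, had 35 and 374 counts with a ratio of 3.07 (2.63 to 3.67), and Pgd, an NADPH-producing enzyme of the pentose phosphate pathway, had 359 and 1417 with 1.69 (1.52 to 1.86).

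For CCl4 plus JT003 over CCl4, 8 of these 33 were called lower, where 2.51% of all genes were called lower, and none higher. Gstm3 was down to 2264 counts, with a log2 ratio of -2.41 (-2.47 to -2.34), Gsta1 to 355 with -2.36 (-2.54 to -2.20), Ptgr1 to 116 with -1.68 (-2.01 to -1.40) and Pgd to 530 with -1.43 (-1.58 to -1.28). Past the test 26 were lower and 3 higher. The count depended on the CCl4 measure used, since 27 of the 33 stood higher past the test in it than in the remainder and none lower. Against the remainder 4 were called lower with JT003, Gstm3, Gsta1, Ptgr1 and Pgd, and past the test 13 were lower and 14 higher. The remainder over corn oil had 5 called higher and 3 called lower, with a median log2 ratio of 0.03. In the diet model 2 of the 33 were called for HFD over SD, both higher, where 5.38% of all genes were called. These were Gsta1, with 1 and 73 counts and a ratio of 4.58 (3.58 to 11.42), and Abcc3, an exporter of conjugates, with 2232 and 5272 counts and a ratio of 1.15 (1.08 to 1.22). Past the test for HFD over SD, however, 7 of the 33 were higher and 14 lower, with a median log2 ratio of -0.08. For HFD plus JT003 over HFD none was called, where 1.63% of all genes were. Past the test 7 were higher and 10 lower there.

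**Figure D4:**
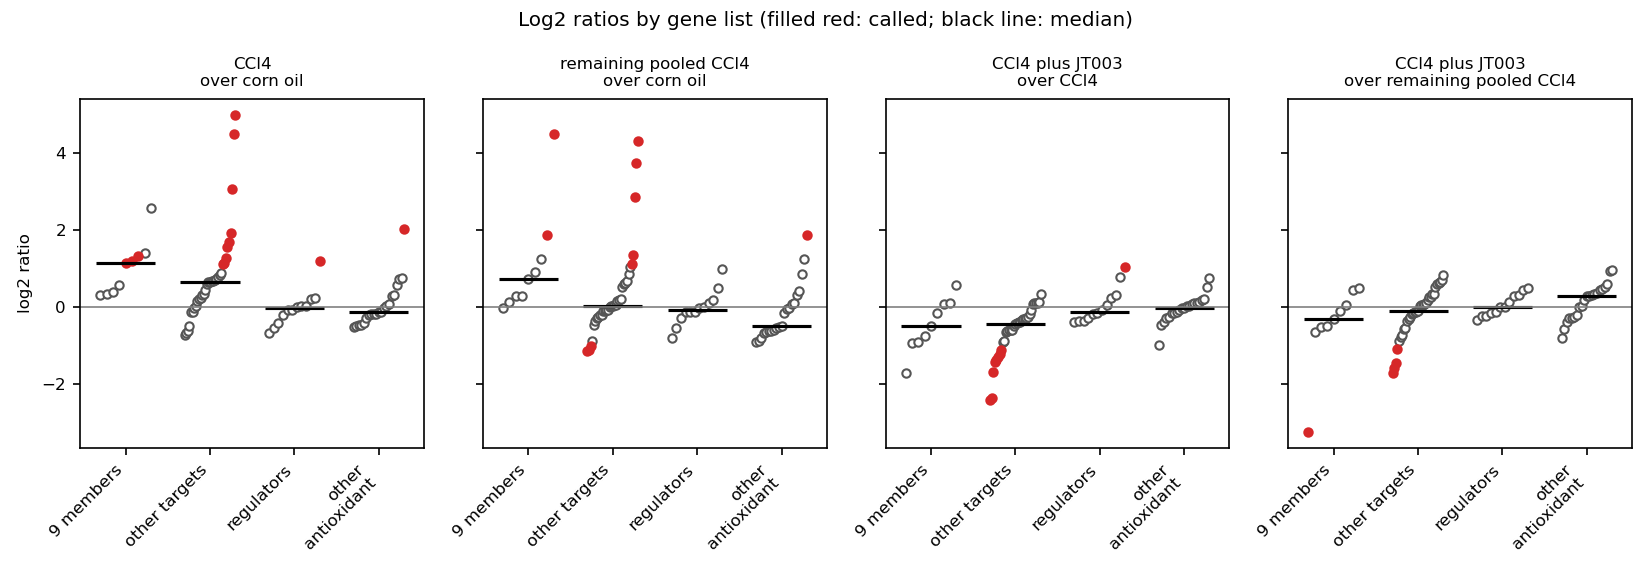
Log2 ratio (y axis) of the 9 members, 33 other NRF2 targets, 12 pathway regulators and 21 other antioxidant enzymes in 4 comparisons. Each point is a gene, filled points were called and black lines are medians. The point of Slc7a11 against corn oil depends on the prior count. The median of the members was 1.16 for CCl4 and 0.72 for the remaining pooled CCl4 counts, each over corn oil, and without Slc7a11 and Gpx2 it was 0.58 and 0.30.

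A list of antioxidant enzymes not known chiefly as NRF2 targets, such as catalase and the superoxide dismutases, held 21 genes. For CCl4 over corn oil 1 of the 21 was called, where 7.18% of all genes were. This was Gpx7, with 31 and 162 counts and a log2 ratio of 2.04 (1.54 to 2.70). For HFD over SD 1 was called, Nqo2, with 600 and 1341 counts and a ratio of 1.07 (0.93 to 1.21). Over the model library none was called with JT003, where 1.63% of all genes were in the diet model and 4.42% in the CCl4 model. For the remainder over corn oil 1 was called higher, and past the test 4 were higher and 11 lower, with a median log2 ratio of -0.49. For CCl4 plus JT003 over the remainder none was called, and past the test 12 were higher and 6 lower, with a median of 0.28. The targets of the stress factor ATF4, which also drives Slc7a11, were called in both directions. Of 15, 4 were called higher and 2 lower for CCl4 over corn oil, and 1 higher and 4 lower for CCl4 plus JT003 over CCl4. For HFD over SD 4 were called higher and 3 lower. With the remainder the counts differed, 8 called higher and 2 lower over corn oil, with a median log2 ratio of 1.16. For CCl4 plus JT003 over the remainder 8 were called lower and none higher, with a median of -1.38, beside the call of Slc7a11 there. The part of ATF4 in that call was not tested. Of 6 targets of the aryl hydrocarbon receptor, which also acts on Nqo1, none was called in these comparisons. Of all genes 5.38% were called for HFD over SD and 7.18% for CCl4 over corn oil. For HFD plus JT003 over SD 1 of the 6 was called higher, where 3.16% of all genes were. The part of this receptor in the Nqo1 results was not tested.

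Markers of other cells and states differed between the same libraries as the members. The summed FPKM of 10 mitosis genes was 3.69 in corn oil, 124 with CCl4 and 9.45 with JT003 added, and all 10 were called higher with CCl4 and lower with JT003. Bub1 was at 0 in corn oil. That of 9 bile duct markers was 28.7, 109 and 111, with none at 0. That of 10 stellate cell and myofibroblast markers was 22.3, 79.5 and 40.8, with none at 0. That of 10 markers of pericentral hepatocytes, the zone that CCl4 injures, was 5984, 1673 and 2847, with none at 0, and 6 of the 10 were called lower with CCl4. In the diet model the stellate cell and myofibroblast sum was 15.1, 43.2 and 22.4 in the order SD, HFD, HFD plus JT003, with 6 of 10 called higher with HFD and 4 called lower with JT003. The pericentral sum was 4919, 6377 and 9284 in the same order. Of these 10 markers 3 were called higher and 2 lower for HFD over SD, and 1 higher and none lower for HFD plus JT003 over HFD. The sum was highest where Gclc had its highest level of the diet model. In the CCl4 model this sum went the other way, lowest in CCl4, where Gclc was highest, and highest in corn oil, where Gclc was lowest. In the 3 libraries of the diet model the mitosis sum was 2.08 to 3.66 and the bile duct sum 17.5 to 27.8. Cftr was at 0 in each of these, and Cldn4 in HFD and HFD plus JT003. The part of all these markers in the members' results was not tested.

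Among themselves the members did not follow a single profile across the 6 libraries. The correlation of each member's centred log2 level with the mean of the other 8 ranged from 0.06 in Srxn1 and 0.09 in Txnrd1 to 0.61 in Slc7a11 and 0.64 in Nqo1. These are descriptions over 6 libraries that share the scaling factors, and 3 of them belong to each model. Among 3689 other genes with at least 100 counts in a library and a log2 range of at least 1, those most like the mean profile of the 9 members were Lig1 (r = 0.993), Inhba (r = 0.988), Robo1 (r = 0.986), Slc44a3 (r = 0.985) and Arhgap10 (r = 0.984), and 124 genes had r above 0.9. Lig1, a DNA ligase of replication and repair, had 39, 54 and 63 counts in the diet model and 30, 174 and 91 in the CCl4 model. Its level was lowest in corn oil and highest in CCl4. Slc7a11 and Gpx2 weigh as much as the other members in that mean despite their few reads.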

How the data were processed

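Liver RNA of 6 conditions was sequenced, 1 library each. The authors deposited an expected count (estimated reads per gene, not normalized, genes without reads not listed) and an FPKM value per gene for each library. The submitters' processing notes name HISAT, Bowtie2, RSEM and mm9, without roles. The authors also deposited 4 comparison tables, of which the expected count of the pooled CCl4 column was used. The others hold FPKM values with the authors' fold changes, p-values and false discovery rates, and 7 further expression columns were not used.

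Expected counts were rounded. TMM factors from edgeR 4.0.16 (R 4.3.3), computed within the 3 libraries of each model, scaled the library sizes. For every gene with at least 1 read the counts of 2 libraries were compared by an exact binomial test (two-sided, scipy 1.17.1), and p-values were adjusted over all such genes after Benjamini and Hochberg. Log2 ratios carry a prior count of 2. The test was checked on simulated Poisson counts with known folds. These had no spread between mice, so the check covers the calculation under counting error and not differences between animals. Python 3.11.15, numpy 2.4.6, pandas 2.3.3 and matplotlib 3.10.9 were used. The depth of 19374236 to 20184557 counts limits the genes with few reads.

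The members and gene lists were chosen with earlier results of these data known. A further target gene and a marker gene are not reported here. Genes named are the members, Nfe2l2, Keap1, Bach1, up to 4 called genes per other list with at least 100 counts and the largest ratios, genes that move with a member, and the 5 genes most like the members' mean profile. Gsta1 in the diet model, with under 100 counts, was named after its values were seen. Promoter sequences are from RefSeq on GRCm38.p6, another build than that of the counts, so no other coordinates are given. The alternatives tried were scaling to total reads, by DESeq2 1.42.0 size factors or by TMM over 6 libraries, a minimum of 10 counts, no fold threshold, adjusted p-values below 0.05, 0.5 as the prior count, the edgeR exact test under an assumed coefficient of biological variation (0.2 or 0.4), FPKM on a log2 scale after adding 1 or 0.1, the pooled CCl4 counts and, chosen after seeing the data, those counts less the CCl4 library.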

Additional observations from a re-analysis of the deposited data

Results flagged for a closer look

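For 4 results the 2 models had log2 ratios of opposite sign, with counting intervals that excluded 0 in both. With 1 library per condition the difference between the models was not tested. Gclc was higher with JT003 in the diet model and lower in the CCl4 model, with 0.21 and -0.91, a difference of -1.13 for the CCl4 model minus the diet model, and against the remaining pooled CCl4 counts the latter ratio was -0.30. Hmox1 was -0.24 with JT003 in the diet model, not past the test, and 0.56 in the CCl4 model, a difference of 0.81, and against the remaining pooled CCl4 counts the latter ratio was -0.10. Srxn1 was -0.83 for HFD over SD and 0.58 for CCl4 over corn oil, a difference of 1.41. Txnrd1 was -0.24 and 0.34 in the same comparisons, a difference of 0.58. With the remaining pooled CCl4 counts over corn oil Srxn1 was 0.29 and Txnrd1 0.12, the latter not past the test.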

How the results depend on the processing

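No paired analysis was possible because each condition has 1 library, and for the same reason no replicate could be left out. Scaling to total reads, to DESeq2 size factors or by TMM over 6 libraries changed no count of members called, although total reads moved the median log2 ratio of all genes to 0.12 for HFD over SD, 0.13 for HFD plus JT003 over SD, 0.23 for CCl4 over corn oil and 0.32 for CCl4 plus JT003 over corn oil. Without the fold threshold the members called were 5 for HFD over SD, 3 for HFD plus JT003 over HFD, 5 for HFD plus JT003 over SD, 6 for CCl4 over corn oil, 5 for CCl4 plus JT003 over CCl4 and 5 for CCl4 plus JT003 over corn oil. In the same order 23.4%, 14.2%, 26.7%, 26.1%, 24.0% and 20.5% of all genes were called without it. Under an assumed coefficient of biological variation, 0.2 or 0.4, 0 members were called in each comparison. These replaced 1 for HFD plus JT003 over SD, 3 for CCl4 over corn oil and 1 for CCl4 plus JT003 over corn oil. Few genes of any kind were called so. At 0.2 and 0.4, 203 and 5 of 17012 genes were called for HFD plus JT003 over SD. For CCl4 over corn oil these were 346 and 59 of 17234, and for CCl4 plus JT003 over corn oil 138 and 24 of 17338. With FPKM values a call rested on the fold threshold alone, without the test. With log2(FPKM + 0.1), Gpx2 was then called too, giving 4 members for CCl4 over corn oil and 2 for CCl4 plus JT003 over corn oil. Of all genes 1715 of 17234 and 1733 of 17338 were called higher in these comparisons under that setting. At an adjusted p-value below 0.05 Slc7a11 was the fourth member called for CCl4 over corn oil, where 1054 of 17234 genes were called higher. With the pooled CCl4 counts, or with those less the CCl4 library, 1 member, Slc7a11, was called for CCl4 plus JT003 over CCl4, and 2 rather than 3 for CCl4 over corn oil. Under these settings 516 of 17789 and 590 of 17554 genes were called lower with JT003. Called higher over corn oil were 1144 of 17726 and 1274 of 17465 genes.

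Directions changed in 9 cases, of ratios near 0 or with other CCl4 counts. Txnrd1 for HFD plus JT003 over HFD was 0.0122 on total reads, 0.0047 with log2(FPKM + 1) and 0.0048 with log2(FPKM + 0.1), and Abcc4 for CCl4 plus JT003 over corn oil was 0.1115, 0.0198 and 0.0515 under the same settings. With the pooled CCl4 counts less the CCl4 library, Gclm over corn oil was -0.0324, and CCl4 plus JT003 over that remainder was 0.0617 for Txnrd1 and -0.1049 for Hmox1. Of the other values of single members, 559 kept their direction and call, 31 gained a call and 14 lost it.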
